A study of Mus musculus with 8 samples.

Results

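The 10 genes described here code for the channels, pumps and store proteins that move calcium in a muscle cell: Cacna1c, Cacna1g, Cacna1h, Itpr1, Ryr2, Ryr3, Atp2a2, Atp2b4, Pln and Casq2. They were chosen by symbol from the 35896 genes of a count table, and all 10 were among the 17182 genes with enough counts to be tested. Aortic RNA of 16 male C57BL6 mice, pooled in pairs, gave 8 libraries and 2 libraries per group. CTRL mice were untreated littermates of the same age. AngII mice received angiotensin II, a peptide that constricts vessels and raises blood pressure, at 2.8 mg/kg/d for 2 weeks from a minipump implanted at an age of 11 weeks, and were sacrificed at the end of the infusion. AngII+2W and AngII+3W mice received the same infusion and were sacrificed 2 and 3 weeks after its end. The labels name no deleted gene or transgene in any group. Control mice were taken at all 3 of these time points, and the labels do not say which time point each CTRL library represents. The question was which aortic transcripts differ after angiotensin II and which of these differences remain after it is withdrawn.

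In a smooth muscle cell, depolarization opens voltage-gated channels in the cell membrane and hormones act through inositol trisphosphate receptors on the sarcoplasmic reticulum, and the calcium that enters or leaves the store drives contraction. Pumps return it, SERCA (coded by Atp2a genes) to the store and PMCA (coded by Atp2b genes) to the outside. Heart muscle uses an L-type channel, ryanodine receptors, SERCA, phospholamban and calsequestrin at high levels. An aortic sample that holds some heart muscle therefore holds these transcripts from both tissues, so that each value was read beside Myh6 (a myosin heavy chain of heart muscle) and Myl7 (a myosin light chain of the atrium).

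Levels are given in CPM, counts scaled to the same library total with TMM factors, and the 8 libraries held between 18130441 and 21498200 counts. Replicates 1 and 2 of CTRL held Myh6 at 2817 and 1263 CPM, those of AngII at 775 and 450 CPM, those of AngII+2W at 94.4 and 1.88 CPM, and those of AngII+3W at 3340 and 197 CPM. Myl7 followed the same order, from 327 CPM in AngII+3W replicate 1 down to 0.107 CPM, or 2 counts, in AngII+2W replicate 2. The 12 cardiac markers summed to between 33.6 and 21386 CPM, with the top in AngII+3W replicate 1 and the next, 12385 CPM, in CTRL replicate 1. Replicate 1 held more Myh6 than replicate 2 in all 4 groups. In AngII, AngII+2W and AngII+3W against CTRL none of the 12 passed the test (FDR below 0.05). Of all genes tested, 5.10%, 0.00% and 0.285% did, in either direction. The median log2 fold changes of the 12 markers were -1.57, -5.20 and -0.20 in the same order. AngII+3W replicate 1 alone also held skeletal muscle markers, at a sum of 2860 CPM for 11 genes against 5.96 to 75.1 CPM in the other libraries. Whether skeletal muscle added to the cardiac sum of that library was not tested. The 7 smooth muscle markers summed to 9416 and 7332 CPM for CTRL, 1707 and 2156 for AngII, 3908 and 3534 for AngII+2W, and 1731 and 3362 for AngII+3W, and 6 of the 7 were lower in AngII and 3 in AngII+3W. The 5 endothelial markers summed to between 870 and 1181 CPM in every library. In AngII, 2 of 4 fibroblast markers and 3 of 5 leukocyte markers were higher, where 5.10% of all genes passed in either direction. In such bulk tissue, fewer cells of a type and less RNA per cell cannot be told apart.

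RefSeq's table of promoters (GRCm38.p6) matched 5 of the 10 genes, Atp2b4, Cacna1c, Casq2, Pln and Ryr2. The 250 bases before the start are shown for 3 genes that differed with Myh6 between replicates (Casq2, Pln and Ryr2) and for Cacna1c, which did not do so in a constant direction. For Cacna1c, the start farthest upstream of its 3 starts is shown. Sequences run 5′ to 3′ on the strand of the gene, and capitals mark matches to the motifs searched.
Casq2, chr3:102086165-102086414, plus strand: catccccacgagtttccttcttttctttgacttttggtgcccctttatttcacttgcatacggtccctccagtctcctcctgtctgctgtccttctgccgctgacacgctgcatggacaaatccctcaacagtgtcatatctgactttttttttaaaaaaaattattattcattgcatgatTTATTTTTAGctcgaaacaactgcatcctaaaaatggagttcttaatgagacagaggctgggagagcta
Pln, chr10:53337436-53337685, plus strand: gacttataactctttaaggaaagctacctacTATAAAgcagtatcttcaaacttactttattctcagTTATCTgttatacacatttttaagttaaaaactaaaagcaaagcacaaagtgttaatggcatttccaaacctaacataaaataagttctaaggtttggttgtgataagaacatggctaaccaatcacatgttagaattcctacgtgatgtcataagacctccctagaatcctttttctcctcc
Ryr2, chr13:12106946-12107195, minus strand: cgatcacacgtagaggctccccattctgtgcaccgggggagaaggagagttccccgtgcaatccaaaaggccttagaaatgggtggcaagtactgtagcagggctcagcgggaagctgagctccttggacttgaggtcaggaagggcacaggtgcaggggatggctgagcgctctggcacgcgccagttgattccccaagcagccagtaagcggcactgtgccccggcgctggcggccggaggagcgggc
Cacna1c, chr6:119196410-119196659, minus strand: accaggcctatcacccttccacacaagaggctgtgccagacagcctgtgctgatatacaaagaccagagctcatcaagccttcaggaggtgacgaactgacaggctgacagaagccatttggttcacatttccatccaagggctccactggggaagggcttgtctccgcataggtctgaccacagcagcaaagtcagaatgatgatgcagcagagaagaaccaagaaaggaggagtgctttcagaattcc
The motifs, searched on both strands, were the CArG box and the MEF2 site by name, the M-CAT element CATTCC, the letters AGATAA bound by factors of the Gata family, and the TATA box, TATAAA. Casq2 held a MEF2 match from 69 to 60 bases before its start, which reads as a match on either strand. Pln held TATAAA from 219 to 214 bases and AGATAA, on the opposite strand, from 183 to 178 bases before its start. No match was found in the windows of Ryr2 and Cacna1c. The window of Atp2b4 (chr1:133753748-133753997, minus strand), which belongs to a start inside the gene, held CATTCC and AGATAA. Among all 32851 windows of this length, 1.47% held a CArG box, 2.92% a MEF2 site, 12.6% CATTCC, 9.99% AGATAA and 12.4% TATAAA, so that these matches describe the letters of the windows only.

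Among the channels of the cell membrane, Cacna1c codes for the pore of the L-type channel, the main voltage-gated calcium channel of smooth and heart muscle (ENSMUSG00000051331, GRCm38 chr6:118587240-119196418, minus strand). Its level was 179 and 129 CPM for CTRL, 79.2 and 87.5 for AngII, 85.7 and 90.9 for AngII+2W, and 102 and 115 for AngII+3W. All 6 libraries of treated mice lay below both CTRL libraries, a pattern that was not counted over all genes. The summed smooth muscle markers given above were also lower in all 6 libraries. The part of smooth muscle content in the difference of Cacna1c was not tested. In AngII the level of Cacna1c was 54.1% of CTRL, a log2 fold change of -0.89 ± 0.17 (SE, n = 2 libraries against 2), and it was the only member that passed the test (FDR = 0.0334, quasi-likelihood test of edgeR, adjusted by Benjamini-Hochberg over all genes). The call was lost without CTRL replicate 1 (-0.63, FDR = 0.122), AngII replicate 1 (-0.81, FDR = 0.172), AngII replicate 2 (-0.96, FDR = 0.186), AngII+2W replicate 1 (-0.89, FDR = 0.0859) and AngII+2W replicate 2 (-0.89, FDR = 0.0853), and with library totals alone in place of TMM factors (-0.85, FDR = 0.0523). In AngII+2W the log2 fold change was -0.80 ± 0.17 (FDR = 0.220), and in AngII+3W it was -0.50 ± 0.17 (FDR = 0.290).

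Cacna1g and Cacna1h code for T-type channels, which open at more negative voltages than the L-type channel. Cacna1g (ENSMUSG00000020866, chr11:94408391-94474198, minus strand) was at 11.2 and 9.74 CPM for CTRL, 15.9 and 17.8 for AngII, 9.80 and 6.66 for AngII+2W, and 5.97 and 8.54 for AngII+3W. It was the only one of the 10 genes with both AngII libraries above both CTRL libraries, and its log2 fold change of 0.68 ± 0.24 did not pass the test (FDR = 0.163). Between AngII and AngII+3W its log2 fold change was -1.21 ± 0.25 (FDR = 0.0607), with no overlap between the groups. The outcome of that comparison depended on the setting. FDR was 0.0345 with every gene that had at least 1 count, 0.0491 with genes that had at least 10 counts in every library and 0.00173 by DESeq2. It was from 0.0565 to 0.172 under the other settings with all libraries, or with both libraries richest in Myh6 left out. With 1 library left out, the log2 fold change ranged from -1.54 (without AngII+3W replicate 2) to -0.97 (without AngII+3W replicate 1).

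Cacna1h (ENSMUSG00000024112, chr17:25374285-25433783, minus strand) was at 13.7 and 7.81 CPM for CTRL, 4.05 and 4.08 for AngII, 3.83 and 3.28 for AngII+2W, and 25.7 and 5.32 for AngII+3W. The AngII and AngII+2W libraries all lay below CTRL, while the AngII+3W libraries lay on either side of it. The log2 fold changes against CTRL were -1.41 ± 0.64 in AngII (FDR = 0.273), -1.60 ± 0.65 in AngII+2W (FDR = 0.435) and 0.53 ± 0.61 in AngII+3W (FDR = 0.766). Without AngII+3W replicate 1 the last of these was -1.02.

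Itpr1 codes for an inositol trisphosphate receptor, the channel through which hormones release calcium from the store (ENSMUSG00000030102, chr6:108213096-108551109, plus strand). Its level was 523 and 516 CPM for CTRL, 389 and 346 for AngII, 451 and 498 for AngII+2W, and 388 and 449 for AngII+3W. Every treated library lay below both CTRL libraries, a pattern that was not counted over all genes. Replicates of a group differed by no more than 1.16-fold. The log2 fold changes of -0.50 ± 0.15 in AngII (FDR = 0.103), -0.13 ± 0.15 in AngII+2W (FDR = 0.826) and -0.31 ± 0.15 in AngII+3W (FDR = 0.441) did not pass the test.

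Ryr2 and Ryr3 code for ryanodine receptors, the release channels that calcium itself opens. Ryr2 (ENSMUSG00000021313, chr13:11553102-12106945, minus strand) is the form of heart muscle, and its promoter window is among those printed above. It was at 693 and 311 CPM for CTRL, 209 and 152 for AngII, 95.3 and 76.7 for AngII+2W, and 775 and 149 for AngII+3W. AngII+3W thus held both the highest value of the series and a value below CTRL, and its replicates differed 5.22-fold. The log2 fold changes were -1.48 ± 0.69 in AngII (FDR = 0.283), -2.55 ± 0.71 in AngII+2W (FDR = 0.301) and -0.12 ± 0.67 in AngII+3W (FDR = 0.959). Ryr3 (ENSMUSG00000057378, chr2:112631355-113217096, minus strand) was low, at 4.77 and 4.80 CPM for CTRL, 4.54 and 2.13 for AngII, 1.45 and 1.18 for AngII+2W, and 8.17 and 1.40 for AngII+3W. Its log2 fold change in AngII+2W was -1.86 ± 0.74 (FDR = 0.429).

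**Figure D1:**
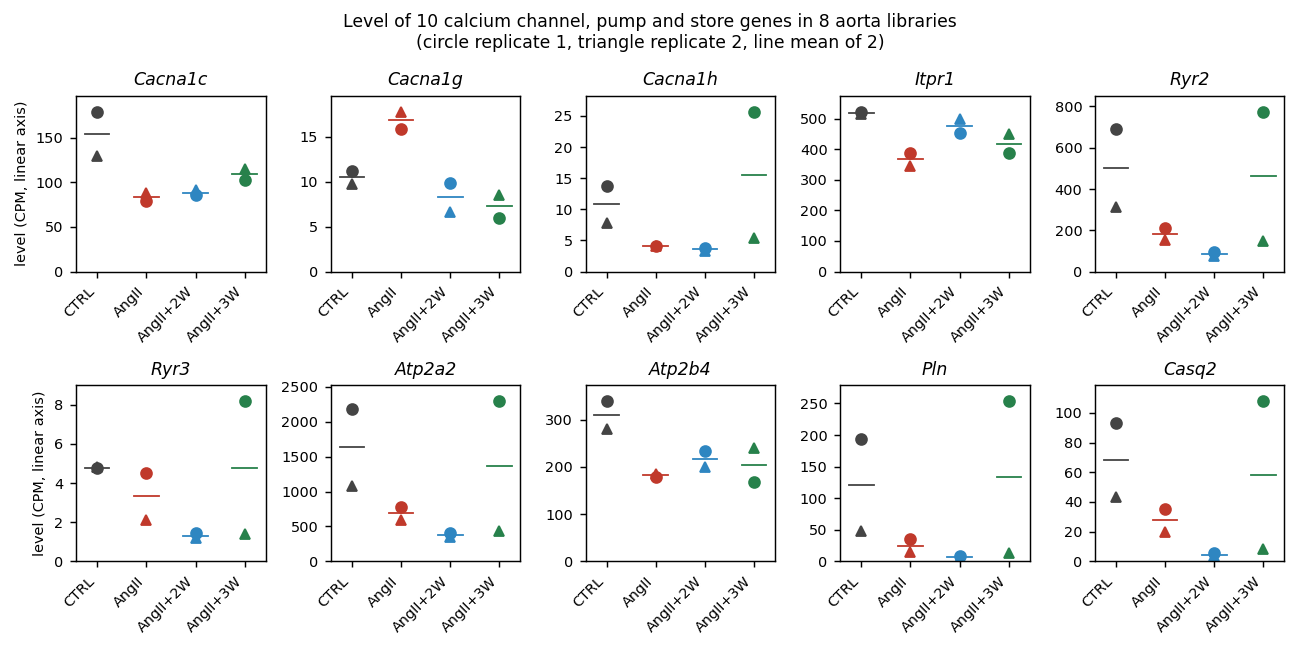
Level in CPM (linear axis from 0, a scale of its own for each gene) of the 10 genes in the 8 libraries, with circles for replicate 1, triangles for replicate 2 and a line at the mean of the 2 libraries of a group. Cacna1c, Itpr1 and Atp2b4 lie below CTRL in every treated library, a pattern that was not counted over all genes. Cacna1h, Ryr2, Ryr3, Atp2a2, Pln and Casq2 have an AngII+3W replicate 1 above both CTRL libraries and an AngII+3W replicate 2 below them.

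Of the pumps, Atp2a2 codes for the SERCA pump of heart and smooth muscle (ENSMUSG00000029467, chr5:122453513-122502225, minus strand). It had the highest level per length of the 10 genes in all 4 groups. Its level was 2186 and 1076 CPM for CTRL, 778 and 599 for AngII, 401 and 342 for AngII+2W, and 2292 and 431 for AngII+3W. The AngII and AngII+2W libraries lay below CTRL, and those of AngII+3W on either side of it. The log2 fold changes were -1.24 ± 0.67 in AngII (FDR = 0.361), -2.13 ± 0.69 in AngII+2W (FDR = 0.336) and -0.26 ± 0.66 in AngII+3W (FDR = 0.909).

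Atp2b4 codes for a PMCA pump of the cell membrane (ENSMUSG00000026463, chr1:133699457-133801041, minus strand). It was at 338 and 280 CPM for CTRL, 179 and 185 for AngII, 233 and 201 for AngII+2W, and 169 and 239 for AngII+3W. As for Cacna1c and Itpr1, every treated library lay below both CTRL libraries, a pattern that was not counted over all genes. In AngII the level was 58.9% of CTRL, a log2 fold change of -0.76 ± 0.20 that missed the threshold (FDR = 0.0698, and 0.00569 by DESeq2). In AngII+2W it was -0.51 ± 0.19 (FDR = 0.399) and in AngII+3W -0.60 ± 0.19 (FDR = 0.264).

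Pln codes for phospholamban, the inhibitor of the SERCA pump (ENSMUSG00000038583, chr10:53337667-53345987, plus strand). It was at 194 and 47.8 CPM for CTRL, 34.7 and 14.6 for AngII, 8.54 and 4.56 for AngII+2W, and 253 and 12.7 for AngII+3W. Its replicates differed 4.06-fold in CTRL and 19.98-fold in AngII+3W, the widest gaps among the 10 genes in those groups. The log2 fold changes were -2.30 ± 1.203 in AngII (FDR = 0.344), -4.20 ± 1.33 in AngII+2W (FDR = 0.322) and 0.14 ± 1.14 in AngII+3W (FDR = 0.973). Of its exon bases, 64.7% overlap Cep85l or Gm47644 on the opposite strand, and whether the counting used strand is not given in the sources used here. Cep85l was at 53.5 to 80.0 CPM in the 8 libraries.

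Casq2 codes for calsequestrin, the calcium buffer inside the store of heart muscle (ENSMUSG00000027861, chr3:102086415-102146514, plus strand). It was at 93.4 and 43.6 CPM for CTRL, 35.5 and 19.9 for AngII, 5.41 and 3.33 for AngII+2W, and 108 and 8.01 for AngII+3W. The order of the libraries was the same as for Pln and for Myh6. The log2 fold changes were -1.31 ± 0.95 in AngII (FDR = 0.505), -3.96 ± 1.09 in AngII+2W (FDR = 0.301) and -0.24 ± 0.93 in AngII+3W (FDR = 0.941).

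**Figure D2:**
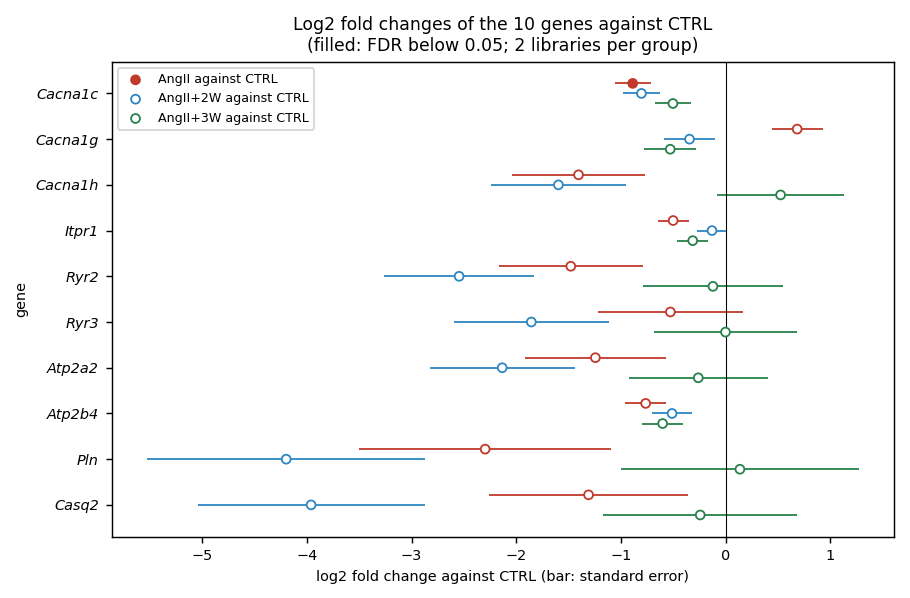
Log2 fold change of the 10 genes in AngII, AngII+2W and AngII+3W against CTRL, with bars for the standard error and filled points for FDR below 0.05. The filled point is Cacna1c in AngII at -0.89, and the bars of Pln and Casq2 are the longest, with standard errors from 0.93 to 1.33.

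Counted together, 1 of the 10 genes passed the test in AngII against CTRL, where 5.10% of all genes tested did, and 4 genes (Cacna1c, Cacna1g, Itpr1 and Atp2b4) had an unadjusted p below 0.05, where 20.2% of all genes did. DESeq2 called 3 (Cacna1c, Itpr1 and Atp2b4), where it called 9.24% of all genes. Both AngII libraries lay below both CTRL libraries for 9 of the 10 genes, against 24.9% of all genes. In AngII+2W 0 of the 10 passed edgeR's test, where 0.00% of all genes did, 8 had an unadjusted p below 0.05 against 10.7% of all genes, and DESeq2 called 2 of them, Cacna1c and Casq2, against 2.17% of all genes. Both AngII+2W libraries lay below both CTRL libraries for 9 genes, against 22.2% of all genes. In AngII+3W 0 of the 10 passed edgeR's test or DESeq2's, where 0.285% of all genes passed edgeR's and 3.62% DESeq2's. Cacna1c and Atp2b4 had an unadjusted p below 0.05 there, as 12.5% of all genes did, and 4 genes had both libraries below CTRL (Cacna1c, Cacna1g, Itpr1 and Atp2b4), as 18.3% of all genes did. The median log2 fold change of the 10 genes against CTRL was -1.07 for AngII, -1.73 for AngII+2W and -0.25 for AngII+3W, beside -0.01, -0.00011 and 0.03 over all genes tested. These 3 comparisons share the CTRL libraries, and the 10 genes are not independent of each other. How many of all genes had every treated library below both CTRL libraries does not follow from these shares and was not counted. Leaving out either AngII+3W library, which takes no part in the other comparisons but in the estimate of the spread, raised the count to 4 in AngII (Cacna1c, Cacna1h, Ryr2 and Atp2b4) and to 5 in AngII+2W (Cacna1h, Ryr2, Atp2a2, Pln and Casq2). Without replicate 1 or replicate 2 of AngII+3W, the calls over all genes rose as well, from 877 to 1504 or 1492 in AngII and from 0 to 261 or 275 in AngII+2W.

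The groups of treated mice were also compared with each other. Between AngII+2W and AngII 0 of the 10 genes passed edgeR's test (0.163% of all genes did), 3 had an unadjusted p below 0.05 (15.0% of all genes did) and DESeq2 called Cacna1g (and 3.99% of all genes). Those 3 were Cacna1g (log2 fold change -1.03 ± 0.25, FDR = 0.113), Itpr1 (0.37 ± 0.15, FDR = 0.291) and Casq2 (-2.65 ± 1.05, FDR = 0.288). Casq2 passed when either AngII+3W library was left out, with an FDR as low as 0.0436, where the calls over all genes went from 28 to 262 or 261. Between AngII+3W and AngII 0 of the 10 passed edgeR's test (1.61% of all genes did), Cacna1g and Cacna1h had an unadjusted p below 0.05 (17.8% of all genes did), and DESeq2 called both (and 6.24% of all genes). Without AngII+3W replicate 2, so that the group held only the library richest in Myh6, 5 passed (Cacna1g, Cacna1h, Ryr2, Atp2a2 and Pln), and the calls over all genes went from 276 to 1005. Between AngII+3W and AngII+2W 0 of the 10 genes passed edgeR's test (0.00% of all genes did), 6 had an unadjusted p below 0.05 (8.83% of all genes did) and DESeq2 called Cacna1h (and 1.37% of all genes). Without AngII+3W replicate 2 edgeR called 6 of the 10 there, and 432 genes in all against 0.

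The genes fell into different patterns when the 2 libraries of a group were set against their Myh6, a measure chosen after the values had been seen. For each 100 CPM by which Myh6 differed between the replicates of a group, Ryr2 differed by 24.6 (CTRL), 17.6 (AngII), 20.1 (AngII+2W) and 19.9 CPM (AngII+3W). Atp2a2 differed by 71.4, 55.1, 64.2 and 59.2 CPM in the same order. Pln differed by 9.42, 6.15, 4.30 and 7.66 CPM, and Casq2 by 3.21, 4.80, 2.25 and 3.17 CPM. These 4 genes were higher in the replicate with more Myh6 in all 4 groups, and the order of the 8 libraries was the same for each of them as for Myh6. Replicate 1 was the replicate with more Myh6 in all 4 groups, so a difference that goes with the replicate number cannot be told apart from this. How many of all genes tested share this direction or order was not counted. The gap in Myh6 itself ranged from 92.6 CPM in AngII+2W to 3143 CPM in AngII+3W. The other 6 genes did not keep 1 direction, although for Cacna1h and Ryr3 this rested on a single small difference each. The replicate with more Myh6 minus the other gave 49.9 CPM in CTRL and -12.7 CPM in AngII+3W for Cacna1c, and 6.54 and -61.2 CPM for Itpr1. For Cacna1h the CTRL replicates gave 5.93 CPM, the AngII replicates -0.026 CPM, the AngII+2W replicates 0.55 CPM and the AngII+3W replicates 20.4 CPM. For Ryr3 they gave -0.024, 2.40, 0.27 and 6.77 CPM in the same order of groups.

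**Figure D3:**
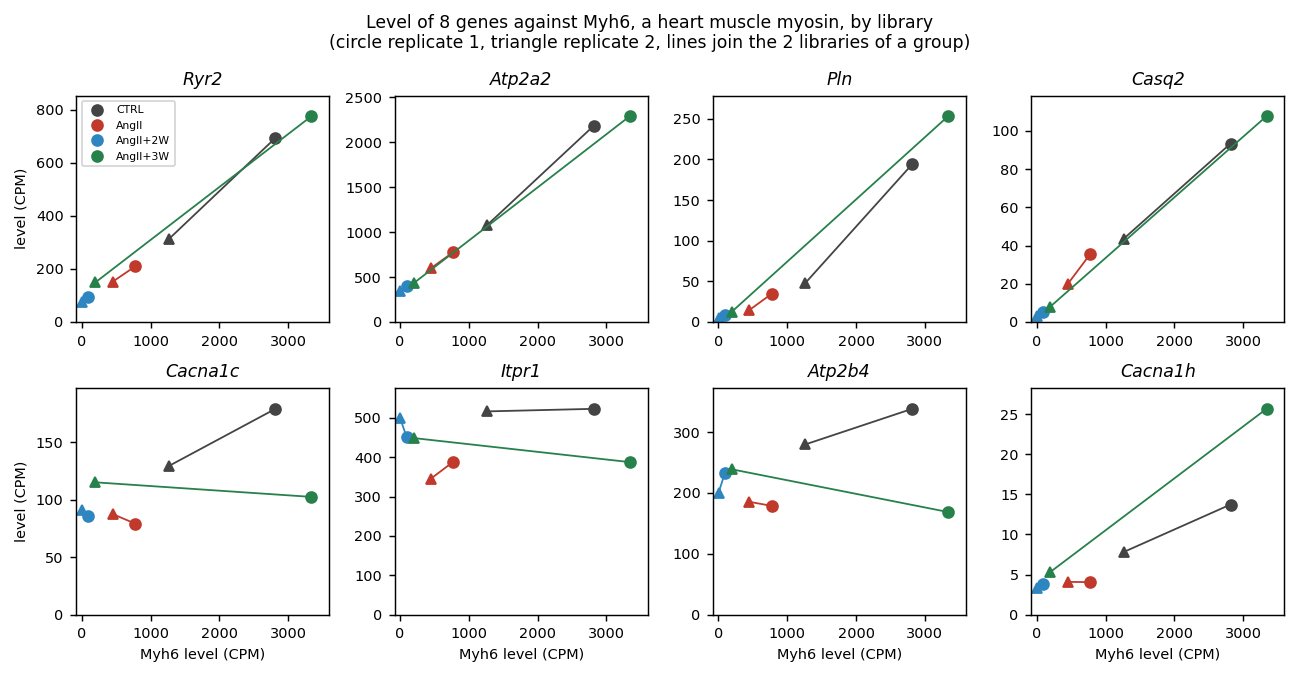
Level of 8 of the genes against the level of Myh6 (both in CPM, linear axes), with a circle for replicate 1 and a triangle for replicate 2 of a group and a line that joins them. Lines for Ryr2, Atp2a2, Pln and Casq2 rise in all 4 groups, those of Cacna1c, Itpr1 and Atp2b4 run in both directions, and Cacna1h rises in CTRL and AngII+3W and is level in AngII.

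The ratio of Ryr2 to Myh6 in CPM was 0.246 in both CTRL libraries, 0.269 and 0.337 for AngII, 1.01 and 40.8 for AngII+2W, and 0.232 and 0.755 for AngII+3W. It was thus nearly constant in the 3 libraries with the most Myh6 and rose as Myh6 fell. The library with nearly no Myh6, AngII+2W replicate 2, still held 1428 counts of Ryr2 (76.7 CPM), 6365 of Atp2a2 (342 CPM), 85 of Pln (4.56 CPM) and 62 of Casq2 (3.33 CPM), all above the floor of 3 counts. The ratio of Pln to Atp2a2 in CPM per kb of exon, the inhibitor beside its pump, was 0.171 and 0.0854 for CTRL, 0.0856 and 0.0470 for AngII, 0.0409 and 0.0257 for AngII+2W, and 0.212 and 0.0566 for AngII+3W. In each group the ratio was higher in the replicate with more Myh6.

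A term for cardiac content, the mean log2 CPM of Myh6 and Myl7, was added to the model. The test of the term itself was added after the data had been seen. For each unit of the term, Pln rose by 0.58 ± 0.22 on the log2 scale (unadjusted p = 0.0329) and Casq2 by 0.49 ± 0.17 (unadjusted p = 0.0247), and neither passed the adjusted test by edgeR (FDR = 0.977 for both). The slopes were 0.27 for Ryr2, 0.25 for Atp2a2, 0.25 for Cacna1h and 0.29 for Ryr3, with unadjusted p from 0.0557 to 0.0720 in edgeR, and between -0.03 and 0.03 for Cacna1c, Itpr1, Atp2b4 and Cacna1g. None of the 10 slopes passed, where 0.192% of all genes did. With the term, the AngII+2W log2 fold change of Atp2a2 went from -2.13 to -0.18 ± 1.15 and that of Ryr2 from -2.55 to -0.49 ± 1.14, while that of Cacna1c went from -0.80 to -0.91 ± 0.33. In AngII, Cacna1c was at -0.91 ± 0.20 with the term (FDR = 0.0675) and Atp2b4 at -0.78 ± 0.23 (FDR = 0.129). The term is on a log scale, on which AngII+2W replicate 2 lies far below the other libraries, and it does not describe RNA that is added in proportion. The part of cardiac content in the group differences of Ryr2, Atp2a2, Pln and Casq2 was not tested beyond these values.

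The AngII+3W libraries lay at the top and near the bottom of the range of Myh6. AngII+3W replicate 1 held markers of heart muscle (Myh6 at 3340 CPM and Myl7 at 327 CPM) and markers of skeletal muscle (a sum of 2860 CPM). The part of skeletal muscle in the levels of the calcium genes in that library was not tested. Without AngII+3W replicate 1, the log2 fold changes against CTRL were -1.76 for Ryr2, -1.78 for Ryr3, -1.93 for Atp2a2, -3.26 for Pln and -3.10 for Casq2. Without AngII+3W replicate 2 they were 0.57 for Ryr2, 0.72 for Ryr3, 0.44 for Atp2a2, 1.01 for Pln and 0.60 for Casq2. The direction of each therefore depended on which library represented the group. Cacna1c (-0.43 and -0.65), Itpr1 (-0.22 and -0.48), Atp2b4 (-0.38 and -0.93) and Cacna1g (-0.30 and -0.86) stayed below 0 with either library left out.

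**Figure D4:**
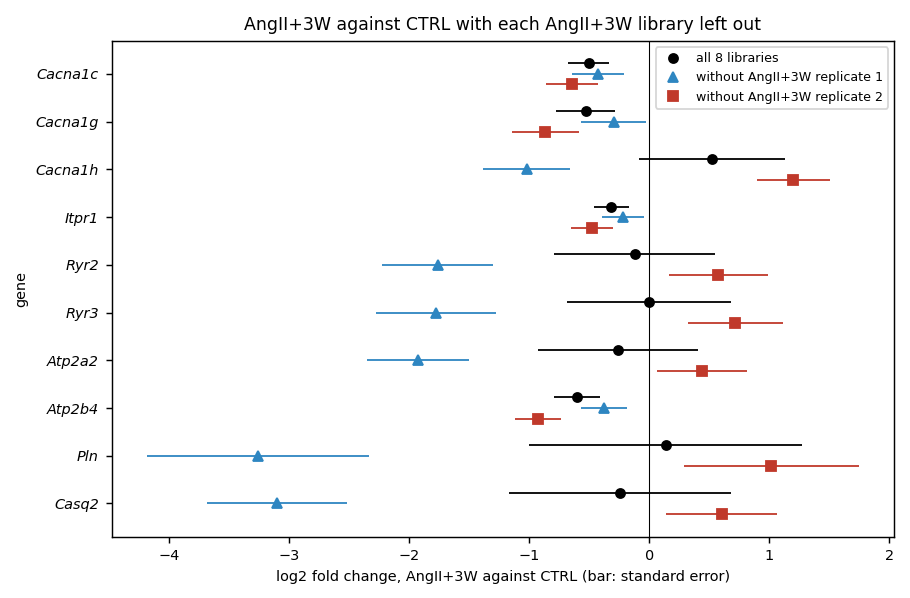
Log2 fold change of the 10 genes in AngII+3W against CTRL with all 8 libraries, without AngII+3W replicate 1 and without AngII+3W replicate 2, with bars for the standard error. Ryr2, Ryr3, Atp2a2, Pln, Casq2 and Cacna1h lie below 0 without replicate 1 and above 0 without replicate 2, and the other 4 genes lie below 0 in each case.

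Levels of different genes were compared per length, as CPM for each kb of exon in the longest coding transcript. In CTRL the order of the mean levels was Atp2a2 (364), Itpr1 (52.7), Pln (51.8), Ryr2 (29.9), Casq2 (26.8), Atp2b4 (26.4), Cacna1c (11.7), Cacna1h (1.31), Cacna1g (1.25) and Ryr3 (0.309). Neighbours from Itpr1 to Atp2b4 overlapped between libraries, as did Cacna1h and Cacna1g. In AngII+2W, where Myh6 was lowest, the order was Atp2a2 (82.8), Itpr1 (48.1), Atp2b4 (18.5), Cacna1c (6.71), Ryr2 (5.11), Pln (2.81), Casq2 (1.71), Cacna1g (0.982), Cacna1h (0.431) and Ryr3 (0.0850). Pln and Casq2 were the only neighbours that overlapped there. Pln, Ryr2 and Casq2 had thus moved from above Atp2b4 and Cacna1c in the mean to below them.

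Within gene families, the make-up also differed between libraries. Of the 3 ryanodine receptor genes per length, Ryr2 made up 95.4% to 99.1% in 7 libraries and 78.4% in AngII+3W replicate 1, where Ryr1, the skeletal muscle form, made up 20.7%. Likewise Atp2a2 made up 84.5% to 97.3% of the SERCA genes in 7 libraries and 76.1% in AngII+3W replicate 1, where Atp2a1, the fast skeletal muscle pump, made up 22.7%. Atp2a3 made up 15.4% in AngII+2W replicate 2 and 2.59% in CTRL replicate 1. Atp2b4 made up 63.0% and 65.6% of the PMCA genes in CTRL and 46.6% and 45.8% in AngII, where Atp2b1, the form found in most tissues, made up 52.5% and 53.1%. In AngII+2W the share of Atp2b4 was 57.1% and 53.2%, and in AngII+3W 46.9% and 55.2%. Among Cacna1c, Cacna1d, Cacna1g and Cacna1h, the share of Cacna1g was 6.38% and 8.07% for CTRL, 20.1% and 19.9% for AngII, 12.7% and 8.69% for AngII+2W, and 5.33% and 8.27% for AngII+3W. Itpr1 made up 51.1% to 65.2% of the inositol trisphosphate receptor genes. These shares are descriptions of the libraries and were not tested.

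**Figure D5:**
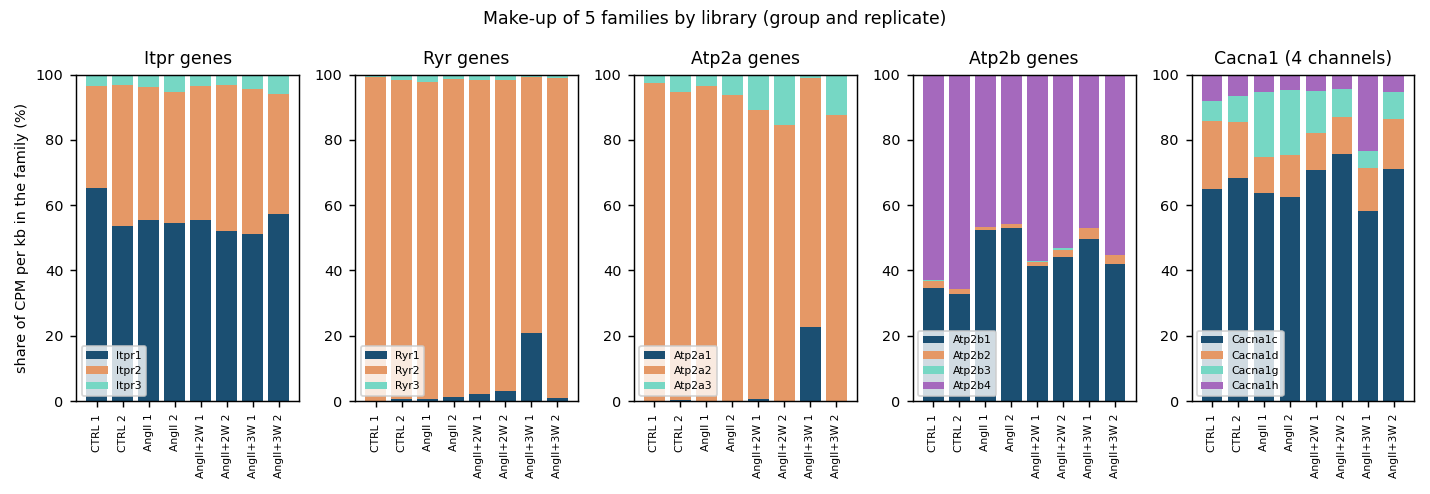
Share (%) of each gene in the summed CPM per kb of its family, for 5 families and the 8 libraries. The share of Atp2b4 is 63.0% and 65.6% in CTRL and 46.6% and 45.8% in AngII, and Ryr1 and Atp2a1 reach 20.7% and 22.7% in AngII+3W replicate 1 alone.

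Other genes of calcium handling were taken from a list of 81 genes, of which 80 were tested. The list was set by role, with earlier results of these data known. In AngII against CTRL 7 were lower and 2 higher, or 11.2% of the list against 5.10% of all genes tested, with a median log2 fold change of -0.23 for the list and -0.01 for all genes. Of the 15 subunits of voltage-gated channels, 3 were lower: Cacna1d (-1.49 ± 0.27, FDR = 0.0258), the pore of another L-type channel, Cacna2d3 (-1.87 ± 0.27, FDR = 0.0150) and Cacnb2 (-1.69 ± 0.29, FDR = 0.0228), auxiliary subunits of such channels. Of the 14 release channels and partners, 2 were lower, Jph2 (-1.52 ± 0.19, FDR = 0.0102), which holds the store next to the cell membrane, and Mrvi1 (-1.42 ± 0.26, FDR = 0.0269), which links cGMP to the inositol trisphosphate receptor. The sodium-calcium exchanger Slc8a2 (-1.78 ± 0.26, FDR = 0.0157) and the calcium-dependent kinase Camk2g (-0.83 ± 0.15, FDR = 0.0236) were also lower. Ppp1r1a (0.85 ± 0.17, FDR = 0.0344), an inhibitor of protein phosphatase 1, and Mcub (1.82 ± 0.41, FDR = 0.0495), an inhibitory subunit of the mitochondrial uniporter, were higher. Of these calls, 4 were also lost under settings that kept every library or left out both libraries richest in Myh6. That of Mcub was lost with size factors of DESeq2 (FDR = 0.0519), library totals alone (0.0579), the replicate number as a block in the model (0.0710) and the cardiac term (0.0998), and that of Camk2g with library totals alone (0.0568). The cardiac term also ended those of Cacna1d (0.0620) and Ppp1r1a (0.0637), and the last was lost without both libraries richest in Myh6 (0.0728). None of the 15 genes of store-operated and receptor-operated entry passed edgeR's test, and 3 had an unadjusted p below 0.05, beside the 5.10% and 20.2% of all genes. All 9 calls were lost when CTRL replicate 1, AngII replicate 1 or AngII replicate 2 was left out (0 called each, with 29, 229 and 0 over all genes). Further counts were 5 without CTRL replicate 2 (351 over all genes), 3 without AngII+2W replicate 1 or 2 (280 or 282), and 15 without AngII+3W replicate 1 or 2 (1504 or 1492).

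Jph2 was at 204 and 168 CPM for CTRL, 54.9 and 75.1 for AngII, 84.1 and 81.9 for AngII+2W, and 93.6 and 114 for AngII+3W. Every treated library thus lay below CTRL, a pattern that was not counted over all genes. Cacna1d was at 37.7 and 21.5 CPM for CTRL, 9.07 and 11.9 for AngII, 9.20 and 9.02 for AngII+2W, and 15.1 and 16.6 for AngII+3W. Both genes, like Cacna1c, were lower in AngII+3W replicate 1 than in replicate 2, which held less Myh6, while in CTRL all 3 genes were higher in replicate 1, which held more. In AngII+2W and AngII+3W against CTRL 0 of the 80 genes passed edgeR's test, 16 had an unadjusted p below 0.05 in each (10.7% and 12.5% of all genes did), and DESeq2 called 4 and 7 (2.17% and 3.62% of all genes). The cardiac term was called for 2 of the 80 genes by edgeR, against 0.192% of all genes: Sln (0.99 ± 0.06, FDR = 0.00249), an atrial inhibitor of SERCA, and Trdn (1.31 ± 0.14, FDR = 0.0173), a partner of the ryanodine receptor in heart and skeletal muscle. Sln was at 0 counts in AngII+2W replicate 2 and at 57.0 CPM in CTRL replicate 1.

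The genes most like each member over the 8 libraries were found by the root mean square difference of log2 CPM after each gene was centred on its mean. The nearest gene was Dsc2 for Pln (0.1097), Trim55 for Casq2 (0.118), Mlip for Ryr2 (0.159), Gm8113 for Atp2a2 (0.164), Fsd2 for Cacna1h (0.196) and Esrrb for Ryr3 (0.249). It was Fryl for Itpr1 (0.0550), Tafa5 for Atp2b4 (0.0793), Wdfy1 for Cacna1c (0.0994) and Col15a1 for Cacna1g (0.129). Among the 10 genes themselves, Ryr2 and Atp2a2 were nearest to each other (0.218), as were Pln and Casq2 (0.522) and Cacna1c and Atp2b4 (0.195), while Itpr1 was nearest to Atp2b4 (0.201). The distance to Myh11, a smooth muscle myosin, was 0.61 for Cacna1c, 0.58 for Atp2b4 and 0.70 for Itpr1. Their distance to Myh6 was 3.11, 3.21 and 3.30. All members were nearer to Myh11 than to Myh6 except Pln (2.03 and 1.85) and Casq2 (1.92 and 1.81).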

How the data were processed

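RNA-sequencing of aortic tissue was analysed from 8 libraries, grouped by their labels. The authors depleted ribosomal RNA, quantified paired-end reads with Salmon against Ensembl cDNA of GRCm38 within ARMOR, and gene totals were formed from transcripts. The deposited values are expected counts, given as whole numbers without normalization. Here, genes were filtered with filterByExpr, scaled by TMM and tested with edgeR 4.0.16 (R 4.3.3, older quasi-likelihood form) in 1 model over 4 groups, with 4 residual degrees of freedom. Two-sided p-values were adjusted over 17182 genes (FDR, threshold 0.05), and standard errors are the log2 fold change divided by the square root of F. With 2 libraries against 2, exact permutation cannot go below p = 0.33 and was not used. Replicates are pools of different mice, so p-values measure the spread between these pools. Alternatives included DESeq2 1.42.0. The script was tested on simulated data in which all genes had the same spread between libraries. That test does not cover genes whose replicates differ as widely as those of Pln. Library totals of 18130441 to 21498200 counts put 3 counts, the floor of detection, at 0.140 to 0.166 CPM. Exon lengths are those of the longest coding transcript. The members and lists were chosen with earlier results of these data known. All 10 members are named in every library, list genes where they passed against CTRL in AngII or AngII+3W, and Sln, Trdn and Calr were named after their values were seen.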

Additional observations from a re-analysis of the deposited data

Results flagged for a closer look

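Calr, which codes for the store protein calreticulin and was named after its values were seen, differed between AngII+3W and AngII in a direct test of the difference between the groups. These groups also differed in age at sacrifice. Calr was the only call among the 80 list genes tested there, or 1.25% of the list beside 1.61% of all genes tested. It was at 406 and 381 CPM for CTRL, 529 and 473 for AngII, 341 and 303 for AngII+2W, and 228 and 255 for AngII+3W. Against CTRL its log2 fold changes were 0.35 ± 0.14 for AngII (FDR = 0.228) and -0.71 ± 0.14 for AngII+3W (FDR = 0.0976), and between AngII+3W and AngII it was -1.06 ± 0.15 (FDR = 0.0252 by edgeR), with no overlap between the libraries. The call was lost without AngII replicate 1 (FDR = 0.0834), AngII replicate 2 (0.166), AngII+2W replicate 1 (0.0704), AngII+2W replicate 2 (0.0699) or AngII+3W replicate 1 (0.0884), with only the 2 groups compared in the fit (0.129), with the cardiac term (0.0549) and without both libraries richest in Myh6 (0.0501). Over these and the other settings FDR ranged from 2.18e-09 by DESeq2 to 0.166.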

How the results depend on the processing

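Of 810 single fold changes recomputed, 694 kept direction and side of the threshold, 67 lost a call, 34 gained one and 15 changed sign, and the causes were not tested. In AngII against CTRL, where 1 member and 877 genes in all were called, the members called were 0 with library totals alone (622 genes in all) or with the cardiac term (408), 2 with only the 2 groups compared (Cacna1c, Cacna1h; 1149), 3 by DESeq2 (1588) and 0 to 4 with 1 library left out (0 to 1504). In AngII+2W against CTRL they were 2 by DESeq2 (373 genes in all) and 0 to 5 with 1 library left out (0 to 275). Between AngII+2W and AngII they were 1 by DESeq2 (685), 4 with only these groups fitted (884) or without both libraries richest in Myh6 (755; Cacna1g, Ryr2, Atp2a2, Casq2) and 0 to 1 with 1 library left out. Between AngII+3W and AngII they were 1 with every gene of at least 1 count (522) or with genes of at least 10 counts in every library (362), 2 by DESeq2 (968) and 0 to 5 with 1 library left out (3 to 1005), and for AngII+3W against AngII+2W 1 by DESeq2 (221) and 0 to 6 (0 to 432). The list count in AngII was 14 by DESeq2 and 0 to 15 with 1 library left out. Where 1 library was left in a group, it was assumed to vary like the others.

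Signs changed in AngII+2W with the cardiac term for Cacna1h (0.26), Ryr3 (0.13) and Pln (0.13). In AngII+3W against CTRL they changed without both libraries richest in Myh6, an alternative chosen after seeing the data, for Cacna1h (-0.55) and Pln (-1.92). With 1 library left out, AngII+3W values ranged from -1.02 to 1.202 for Cacna1h, -1.76 to 0.57 for Ryr2, -1.93 to 0.44 for Atp2a2, -3.26 to 1.45 for Pln and -3.10 to 0.60 for Casq2. With the replicate block Pln in AngII+3W was -0.36, and the members called against CTRL were 1 in AngII and 0 in AngII+2W and AngII+3W. Libraries with the same number are pools of different mice. Replicate differences correlated between groups from -0.0445 to 0.248, above 0.1 in 3 of 6 pairs and not in all, so the number was not taken as a pairing, and not every library correlated best with its own number. Replicate 1 held more Myh6 in all 4 groups. Alternatives for comparisons between treated groups and for the list were also chosen after seeing the data.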
